A study of Mus musculus with 6 samples.

Results

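The 10 genes described here belong to the blood vessels and the meninges and were measured in the whole brain of mice without NCAM, the neural cell adhesion molecule. They are Anxa2, Igfbp2, Ptgds, Col1a2, Col3a1, Col4a1, Vtn, Cldn5, Flt1 and Acta2. The 10 genes were read by 16 of the 12422 probe sets of the array, each with 1 gene symbol in the platform annotation. Of these, 13 probe sets of 9 genes were bright enough to be tested, and the 3 probe sets of Col3a1 were not.

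The series compared 3 constitutive Ncam knockout males (NCAM -/-) with 3 wild-type males (NCAM +/+) of the same C57BL/6J background. Both genotypes included 2-month-old animals, replicates 1 and 2, and 1 animal aged 3 months, replicate 3. Each animal gave total brain RNA for 1 one-colour Affymetrix array, so n = 3 per genotype. A constitutive knockout lacks the gene in every cell from conception, so direct and indirect differences are not separated by this design. In RNA of a whole brain, fewer cells of a type cannot be told apart from less RNA per cell.

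Brain capillaries are tubes of endothelial cells sealed by tight junctions, which form the blood-brain barrier. Pericytes and smooth muscle cells surround them, and endothelium and pericytes share a basement membrane rich in collagen IV and laminin. The meninges cover the brain surface, and their fibroblasts deposit fibrillar collagens and secrete carrier proteins and growth factor binding proteins into the cerebrospinal fluid. Several of these genes are not exclusive to such cells: Ptgds is also made by oligodendrocytes, Igfbp2 by astrocytes and choroid plexus, and Anxa2 by many cell types.

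In knockout brains Anxa2 and 1 of the 2 Flt1 probe sets had higher signals, and Igfbp2 had lower signals, in every animal than in any wild-type animal. The other 10 tested probe sets overlapped between the genotypes. Groups did not overlap in 3 of these 13 probe sets and in 12.9% of all tested probe sets. Split by direction, knockout was higher in 2 members and in 6.08% of all, and lower in 1 member and in 6.8% of all. By limma 0 of 13 passed an adjusted p of 0.05, where 0.0268% of all tested probe sets did (0.0134% higher and 0.0134% lower in knockout brains). Without adjustment 4 of 13 were under 0.05, and 6.94% of all tested probe sets were. The knockout against wild-type differences of these same arrays helped to choose Anxa2 and Igfbp2. All 10 genes were chosen with earlier results of these data known. The genotype values of the genes are therefore a description, given with no test, and these counts are not read as a result.

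The promoters of the 3 genes with separated signals are shown to identify them, as 300 bases around each RefSeq transcription start on GRCm38.p6, 5′ to 3′ on the strand of the gene. Capitals mark 4 kinds of motif, each searched on both strands. GC boxes are spelled GGGCGG. The core of a TATA box is spelled TATAAA. The cyclic AMP response element is TGACGTCA. Sites for the AP-1 factor are spelled TGAGTCA.
Anxa2 (chr9:69453433-69453732, plus strand): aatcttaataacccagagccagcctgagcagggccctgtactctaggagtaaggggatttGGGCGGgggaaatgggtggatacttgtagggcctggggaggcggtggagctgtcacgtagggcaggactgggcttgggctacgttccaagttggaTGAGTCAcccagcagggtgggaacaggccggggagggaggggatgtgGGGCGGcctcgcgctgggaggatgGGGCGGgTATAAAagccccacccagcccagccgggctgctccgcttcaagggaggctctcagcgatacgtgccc
Igfbp2 (chr1:72824230-72824529, plus strand): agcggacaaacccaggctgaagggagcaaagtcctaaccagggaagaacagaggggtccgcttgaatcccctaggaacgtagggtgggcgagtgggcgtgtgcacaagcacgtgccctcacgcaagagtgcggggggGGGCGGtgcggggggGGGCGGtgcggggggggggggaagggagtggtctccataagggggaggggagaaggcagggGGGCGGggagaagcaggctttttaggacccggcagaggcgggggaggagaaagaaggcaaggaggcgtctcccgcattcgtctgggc
Flt1 (chr5:147725962-147726261, minus strand): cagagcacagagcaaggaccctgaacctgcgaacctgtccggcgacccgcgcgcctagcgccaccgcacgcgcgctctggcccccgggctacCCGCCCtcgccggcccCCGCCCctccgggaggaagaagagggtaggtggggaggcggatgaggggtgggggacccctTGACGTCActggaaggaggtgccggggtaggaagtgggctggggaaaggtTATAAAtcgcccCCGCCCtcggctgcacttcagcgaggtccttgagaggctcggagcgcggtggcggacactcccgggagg
In these 3 promoters no marked motif overlapped another. The RefSeq table holds a second start for Igfbp2, and the upstream one is shown. In at least 1 of their listed promoters, 6 of the 10 genes had a GC box, against 35.9% of 32544 mouse promoters of this length. A TATAAA stood in 4 of the 10 (13.6% of all promoters), an AP-1 site in 3 (5.19%) and the cyclic AMP response element in 1, Flt1 (1.80%). A match in these letters is a description of the sequence and not a measured site.

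The arrays were checked on the targeted gene and on the tissue. The brightest Ncam1 probe set read between 208.7 and 327.4 in knockout brains and between 1216 and 1448 in wild-type brains, and it was called lower (log2 difference -2.26 ± 0.15, limma). A second, less specific one read 71.2 to 100.9 in knockout brains against 140.9 to 154.7 in wild-type brains and was not called (-0.68 ± 0.15). The remaining Ncam1 probe set read under 9 on every array. All 8 neuronal markers on the array read above the limit for testing, a signal of 72.2, on every array. Knockout replicate 1 had a high median over 8 pituitary markers (1.61 on the log2 scale relative to the wild-type mean, others -0.22 to 0.40), and knockout replicate 2 a low median over 12 cerebellar markers (-1.60, others -0.13 to 0.06). The pituitary list summed to 4699 to 19841 in knockout brains against 4455 to 5030.5 in wild-type brains. The cerebellar list summed to 4768.5 to 13886 against 12780 to 14011. The pituitary markers Fshb, Tshb, Gnrhr and Cyp11a1 were too dim to be tested. For the Gapdh control, the 3′ over 5′ ratio, a sign of RNA quality, was 0.811 to 0.826 in knockout samples against 0.768 to 0.798 in wild-type samples. The same ratio of the actin control overlapped, at 1.14 to 1.22 in knockout samples against 1.084 to 1.196 in wild-type samples. The part of these differences between arrays in the values below was not tested.

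Igfbp2, a secreted carrier of insulin-like growth factors, was lower in knockout brains. Its signal was 548.6, 550.3 and 554.1 in knockout replicates 1, 2 and 3, against 643.7, 749.4 and 713.4 in the wild-type replicates. The knockout animals lay within a few units of each other, while the wild-type animals were more widely spread, and the groups did not overlap. The means were 551.0 ± 2.80 in knockout and 702.2 ± 53.7 in wild-type brains (SD, n = 3 each), a log2 difference of -0.34 ± 0.08 (SE), or 1.26-fold lower. Leaving out any 1 array gave -0.40 to -0.29.

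Ptgds encodes the lipocalin-type prostaglandin D synthase, an abundant protein of cerebrospinal fluid, and the differences of its 3 probe sets had mixed signs. Probe set 102105_f_at read 6457, 5273 and 5565 in knockout replicates 1, 2 and 3, against 6685, 6074 and 8120 in wild-type replicates 1, 2 and 3. Knockout replicate 1 lay above wild-type replicate 2, so the groups overlapped, and wild-type replicate 3 was the highest (log2 difference -0.27 ± 0.11, and -0.15 without that animal). Probe set 92545_f_at read 5652, 5431.5 and 5505 in knockout brains against 5454, 5482 and 5345 in wild-type brains, and the groups overlapped with the knockout mean slightly above the wild-type mean (0.03 ± 0.05). Probe set 92546_r_at read 5349, 5161 and 5510 in knockout brains against 5583, 5467 and 5720 in wild-type brains (-0.07 ± 0.05), again overlapping. The suffixes _f and _r mark less specific probe sets, so none of the 3 is of the standard kind.

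Col1a2 and Col3a1 encode chains of the fibrillar collagens I and III, which meningeal fibroblasts make. Col1a2 by probe set 101130_at read 131.2, 123.55 and 75.1 in knockout replicates 1, 2 and 3, against 91.6, 146.2 and 145.2 in wild-type replicates 1, 2 and 3. One animal of each genotype was low, knockout replicate 3 and wild-type replicate 1, and the groups overlapped (log2 difference -0.20 ± 0.23). The sign was set by knockout replicate 3, without which the difference was 0.02. The less specific probe set 161156_r_at read 1356, 1177 and 1444 in knockout brains against 1134, 1323 and 1383 in wild-type brains. These overlapped as well, at 0.05 ± 0.10.

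Col3a1 was too dim to be tested by any of its probe sets. The brightest, 98331_at, read 29.6, 47.3 and 28.9 in knockout replicates 1, 2 and 3, against 72.8, 58.8 and 46.6 in wild-type replicates 1, 2 and 3. Only knockout replicate 2 reached the lowest wild-type value, and the means were 35.2 ± 10.4 and 59.4 ± 13.1 (SD, n = 3 each). The other probe sets read under 6 on every array. Of these, 102990_at was higher in all knockout animals (2.91 to 3.52, against 1.60 to 1.91), opposite to 98331_at and far below the limit of 72.2.

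**Figure D1:**
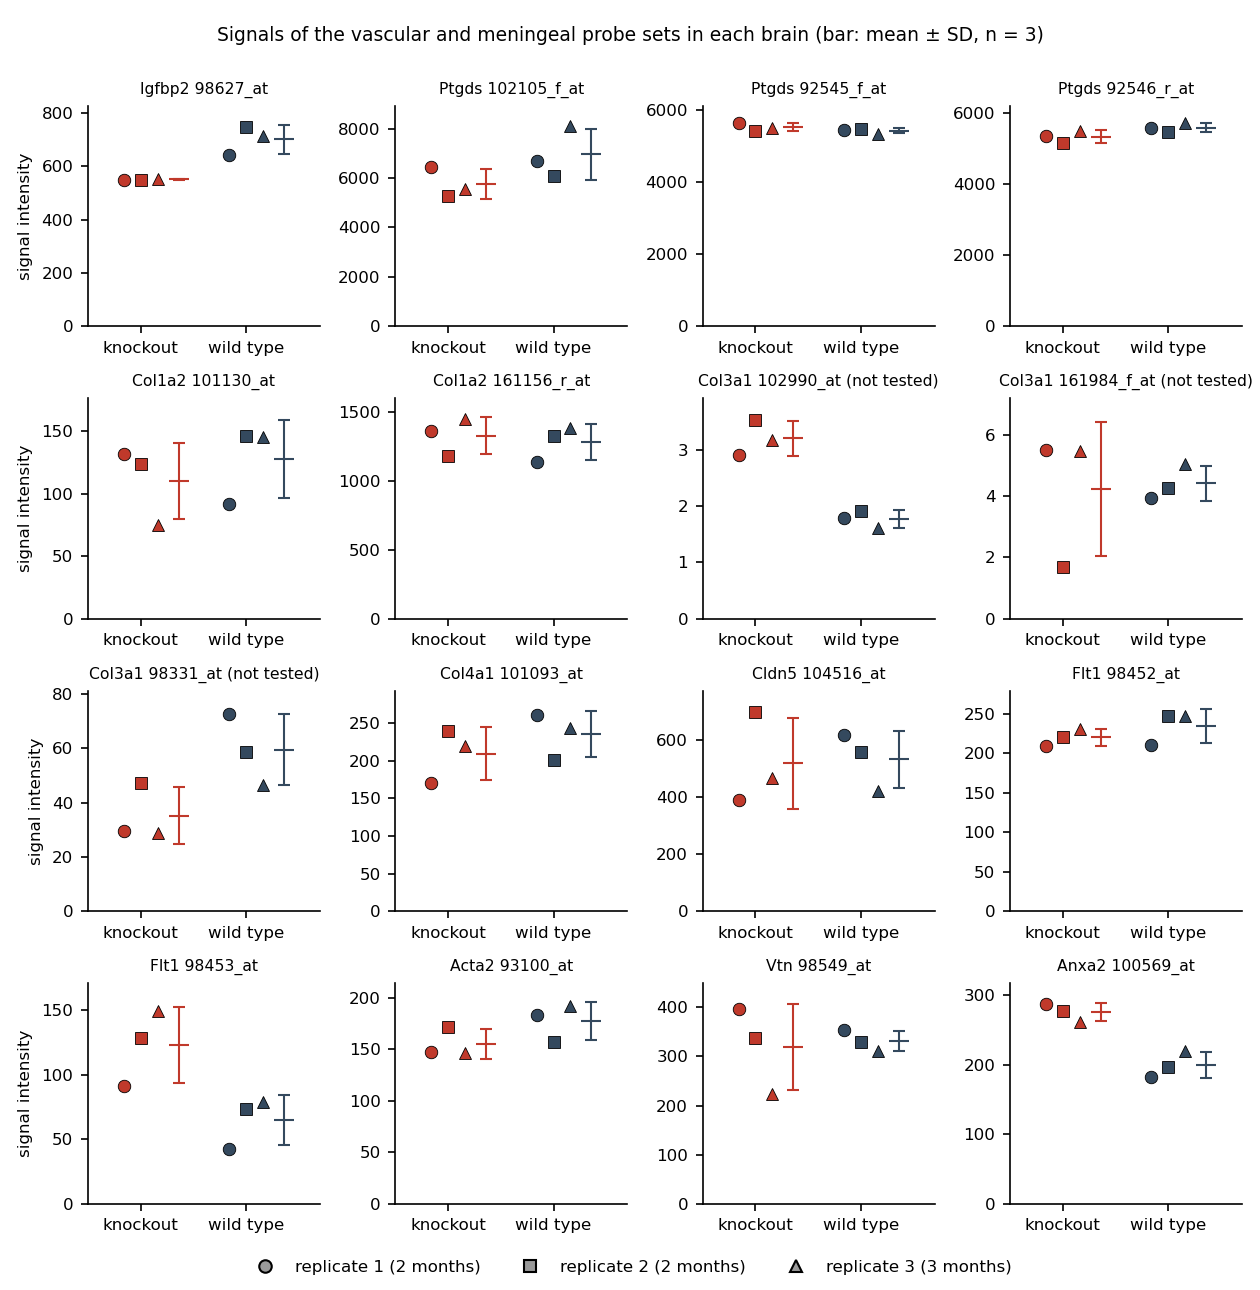
Signal intensity (vertical axes, from 0) of the 16 probe sets in the 3 knockout (red, left) and 3 wild-type brains (dark blue, right), with symbols for the replicate number and bars for mean ± SD. Anxa2 lies between 261.9 and 286.9 in knockout and between 182.25 and 220.2 in wild-type brains, Igfbp2 is separated the other way, and Flt1 is separated by 98453_at but not by 98452_at.

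Col4a1, a chain of basement membrane collagen IV, read 169.9, 238.9 and 219.5 in knockout replicates 1, 2 and 3, against 261.3, 201.0 and 243.9 in wild-type replicates 1, 2 and 3. The lowest value was that of knockout replicate 1 and the highest that of wild-type replicate 1, with overlap between (log2 difference -0.16 ± 0.15). Its partner chain Col4a2 averaged 493.6 ± 23.1 in knockout and 522.6 ± 12.8 in wild-type brains (-0.08 ± 0.08), also overlapping.

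Cldn5, the main claudin of endothelial tight junctions, varied between animals more than between genotypes. It read 391.2, 698.0 and 466.3 in knockout replicates 1, 2 and 3, against 617.5, 558.6 and 422.4 in wild-type replicates 1, 2 and 3. Knockout animals held both the highest and the lowest value (log2 difference -0.06 ± 0.21). The difference was 0.11 without knockout replicate 1 and -0.29 without knockout replicate 2, the animals with high pituitary and low cerebellar signal.

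Flt1 encodes vascular endothelial growth factor receptor 1, which exists as a membrane receptor and as a soluble form that captures the ligand, and its 2 probe sets gave different pictures. Probe set 98453_at read 91.4, 128.7 and 149.7 in knockout replicates 1, 2 and 3, against 42.7, 73.7 and 78.7 in wild-type replicates 1, 2 and 3. The groups did not overlap (means 123.3 ± 29.5 and 65.0 ± 19.5, SD, n = 3 each). The wild-type mean and wild-type replicate 1 lay below the limit of 72.2, so this probe set was tested only through its higher knockout signals, and its log2 difference of 0.79 ± 0.24 is a description of dim values. Probe set 98452_at read 209.3, 220.9 and 230.4 in knockout replicates 1, 2 and 3, against 209.9, 246.4 and 247.3 in wild-type replicates 1, 2 and 3, a log2 difference of -0.08 ± 0.11 with overlapping groups. Which form of the transcript each probe set reads is stated in none of the sources used here.

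Acta2, smooth muscle actin of arteriolar walls, read 147.5, 171.8 and 146.5 in knockout replicates 1, 2 and 3, against 183.7, 156.95 and 191.7 in wild-type replicates 1, 2 and 3. Knockout replicate 2 lay above wild-type replicate 2, so the groups overlapped (log2 difference -0.17 ± 0.13). Vtn, vitronectin, an adhesive glycoprotein made by brain pericytes, read 396.3, 336.7 and 223.6 in knockout replicates 1, 2 and 3, against 353.4, 329.8 and 311.4 in wild-type replicates 1, 2 and 3. The knockout group held the highest and the lowest value (-0.09 ± 0.18), and without knockout replicate 3 the difference was 0.14.

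Anxa2, annexin A2, a calcium-dependent membrane-binding protein that with S100a10 serves as a cell-surface receptor for plasminogen and its activator, was higher in knockout brains. Its signal was 286.9, 277.6 and 261.9 in knockout replicates 1, 2 and 3, against 182.25, 196.5 and 220.2 in wild-type replicates 1, 2 and 3. Every knockout animal lay above every wild-type animal, with the narrowest gap between the 3-month-old animals. The means were 275.5 ± 12.6 in knockout and 199.7 ± 19.2 in wild-type brains (SD, n = 3 each), a log2 difference of 0.44 ± 0.11, or 1.35-fold higher. Leaving out any 1 array gave 0.38 to 0.51. Anxa2 lies on chromosome 9, as Ncam1 does, with 215 protein-coding genes between them in the GRCm38.p6 gene order, and any part of this position in the difference was not tested.

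**Figure D2:**
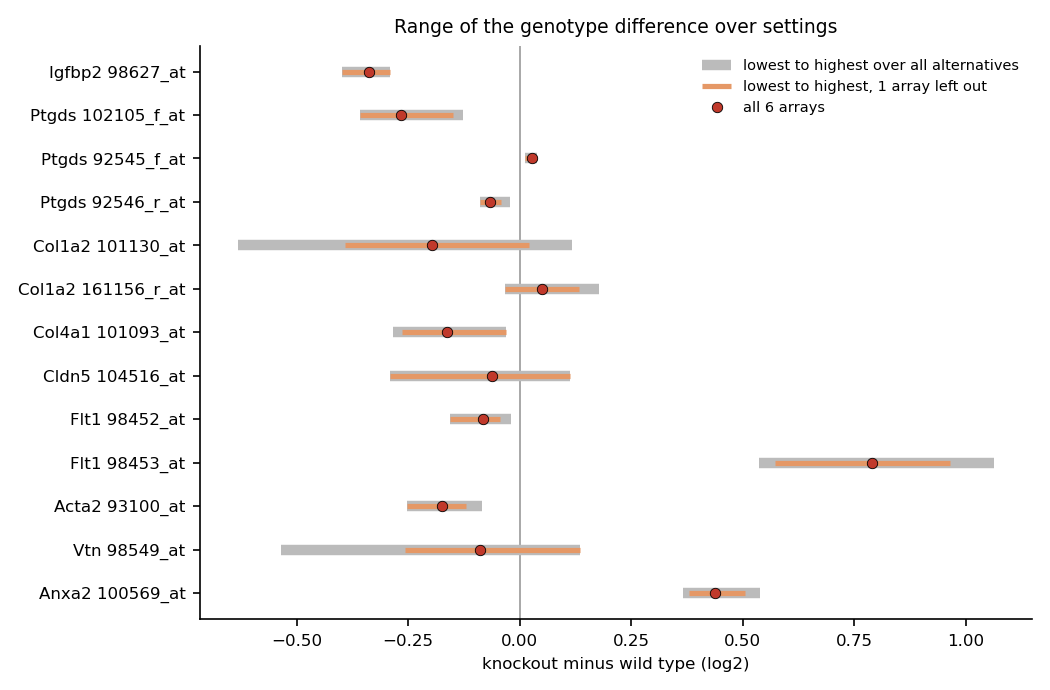
Knockout minus wild-type log2 difference (horizontal axis) of the 13 tested probe sets with all 6 arrays (points), its range with 1 array left out (orange) and its range over all alternative settings (grey). Anxa2 stays between 0.37 and 0.54 and Igfbp2 between -0.40 and -0.29, whereas Col1a2, Cldn5 and Vtn cross 0.

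With 1 probe set per gene, the brightest, 7 of the 9 measured genes were lower and 2 were higher in knockout brains, with a median log2 difference of -0.09. The 2 were Anxa2 and Col1a2 by 161156_r_at, while Flt1 counted as lower by 98452_at and Ptgds by 102105_f_at. Col1a2 101130_at (-0.20), Flt1 98453_at (0.79) and Ptgds 92545_f_at (0.03) had the opposite sign. The genes were selected on this difference, so the count is a description. Over all 5665 measured genes 50.8% were lower and the median was -0.0016. The median of the 9 genes relative to the wild-type mean was -0.15, -0.04 and -0.17 in knockout replicates 1, 2 and 3, against -0.05, -0.0053 and 0.08 in wild-type replicates 1, 2 and 3. Knockout replicate 2 lay within the wild-type range, and without it the median difference was -0.20. The spread within genotypes was close to that of the array (median SD 0.15 on the log2 scale over the 13 probe sets, against 0.14 over all tested probe sets), and it ranged from 0.02 for Ptgds 92545_f_at to 0.36 for Col1a2 101130_at.

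Age was the other condition, and it played no part in the choice of the genes. In limma with genotype as a term, 0 of 13 probe sets were called between 3-month-old and 2-month-old animals at an adjusted p under 0.05 (0.0268% of all tested probe sets), and 1 of 13 was under 0.05 without adjustment (12.4% of all, 6.31% higher and 6.09% lower in the older animals). In all, 9 of the 13 were higher and 4 lower at 3 months. The 1 was Vtn, which was lower and read 223.6 and 311.4 in the 3-month-old knockout and wild-type animals, against 396.3 and 336.7 in the 2-month-old knockout and 353.4 and 329.8 in the 2-month-old wild-type animals. Both older animals lay below all 4 younger ones (log2 difference -0.40 ± 0.14, adjusted p = 0.333 in limma, and 0.274 or more over the alternatives). The size of the difference rested mostly on the knockout animal. It was -0.13 without knockout replicate 3 and -0.67 without wild-type replicate 3, the ends of the range over the alternatives. Each of these fits leaves 1 animal aged 3 months.

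Col1a2 by 161156_r_at was also separated by age, with 1444 and 1383 in the 3-month-old animals, against 1134 to 1356 in the 2-month-old animals (0.18 ± 0.09, adjusted p = 0.444 in limma, 0.374 to 0.824 over the alternatives). Its other probe set went the opposite way (-0.18 ± 0.25). For Anxa2 and Igfbp2 the age differences were 0.05 ± 0.11 (95% interval -0.21 to 0.31) and 0.02 ± 0.09 (-0.18 to 0.22). Cldn5 read 466.3 and 422.4 in the 3-month-old animals, against 391.2 to 698.0 in the 2-month-old animals (-0.31 ± 0.20), and overlapped.

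Whether the age difference itself depended on genotype was tested with an interaction term in limma, added after the data were seen. No member passed (0 of 13, against 0.0268% of all), and without adjustment 2 of 13 were under 0.05 (5.7% of all). Only 1 animal of each genotype was 3 months old, so the precision was low, and the term ranged from -0.94 ± 0.39 for Col1a2 101130_at to 0.30 ± 0.42 for Cldn5. For Vtn the term was -0.54 ± 0.22.

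**Figure D3:**
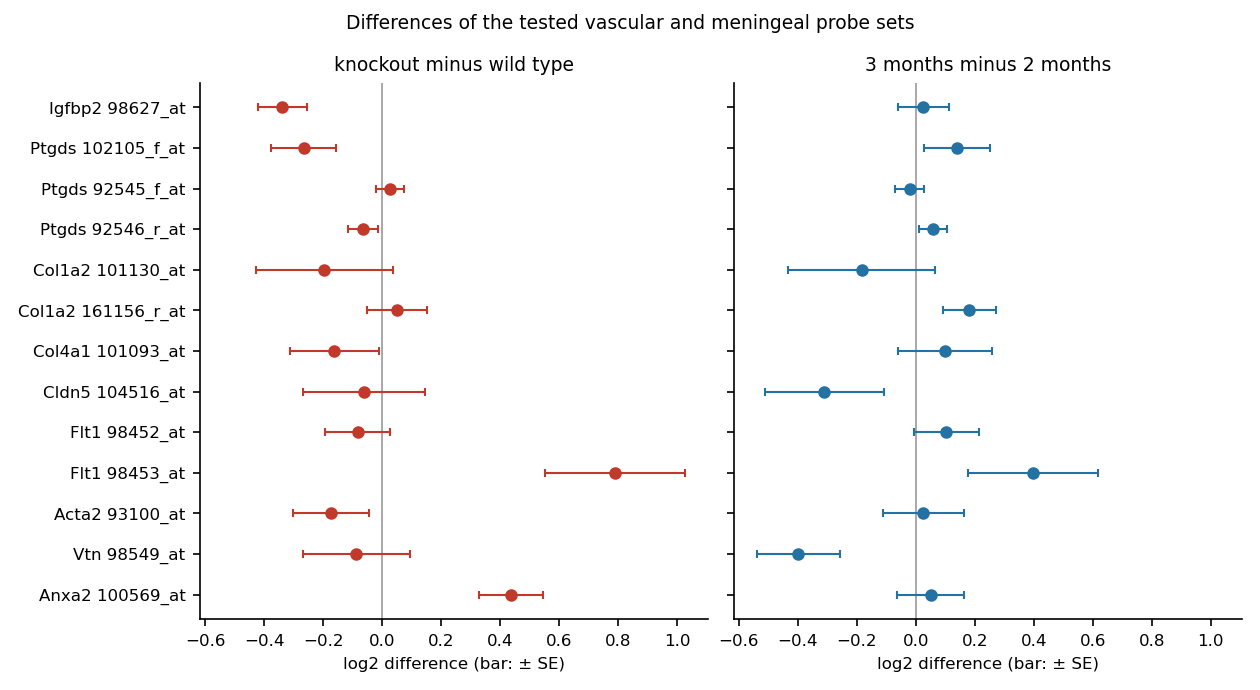
Log2 differences (horizontal axes, bars ± SE) of the 13 tested probe sets between knockout and wild-type brains (left) and between 3-month-old and 2-month-old brains (right). Anxa2 and Flt1 98453_at stand to the right and Igfbp2 to the left in the genotype panel, while Vtn is farthest to the left in the age panel at -0.40 ± 0.14.

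Other genes of the same cells, counted without the 10 members, had medians of -0.11 to -0.04 in the 4 vascular and meningeal lists, with 0 called in any list. The median was -0.09 for the members and -0.0016 for all measured genes, of which 50.8% were lower. Among 16 further endothelial genes 6 were higher and 10 lower in knockout brains (median -0.10), and 2 were lower with an unadjusted limma p under 0.05, as were 3.68% of all tested probe sets. These were the efflux transporter Abcg2, with 186.4 ± 5.76 in knockout and 226.6 ± 16.9 in wild-type brains (log2 difference -0.26 ± 0.11), and Itm2a, a membrane protein, with 333.9 ± 31.4 and 393.5 ± 15.1 (-0.23 ± 0.10). The junction scaffold Tjp1 averaged 746.8 ± 37.0 and 673.7 ± 59.9 (0.15 ± 0.09), and Car4, a capillary carbonic anhydrase, 553.25 ± 170.1 and 586.3 ± 23.8. The first pair did not overlap between genotypes, and the second pair did.

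Of 9 further mural genes 8 were lower (median -0.04), 1 of them at an unadjusted limma p under 0.05, as were 3.68% of all tested probe sets. This was Rgs5, a pericyte regulator of G-protein signalling, which read 227.0, 192.7 and 210.1 in knockout replicates 1, 2 and 3, against 279.9, 252.4 and 250.4 in wild-type replicates 1, 2 and 3. The groups did not overlap (-0.29 ± 0.11), but a second Rgs5 probe set gave -0.02. Mylk, a myosin kinase of smooth muscle, had -0.03 ± 0.08, and Des, the muscle filament desmin, -0.23 ± 0.15.

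Of 20 further genes of meninges and fibroblasts 14 were lower (median -0.11). Col6a1, a chain of the microfibrillar collagen VI, read 499.0, 549.2 and 505.2 in knockout replicates 1, 2 and 3, against 612.8, 630.4 and 680.2 in wild-type replicates 1, 2 and 3. It was the 1 gene of that list with an unadjusted limma p under 0.05, without overlap (-0.30 ± 0.08). Of all tested probe sets 3.68% were lower at that level. Igf2, a growth factor made by meninges, averaged 1480 ± 95.6 and 1616 ± 226 (-0.12 ± 0.10), and the matrix protein Fbln2 68.5 ± 36.1 and 111.4 ± 14.2 (-0.69 ± 0.32), both overlapping. The knockout mean of Fbln2 lay below the limit for testing, so its difference is a description of dim values. Foxc1, Foxc2 and Foxd1, transcription factors of meningeal development, were below the limit for testing.

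Of 9 further basement membrane genes 8 were lower (median -0.08) and 0 had an unadjusted p under 0.05. The laminin chains Lamc1, by a less specific probe set, and Lama4 had -0.27 ± 0.15 and -0.27 ± 0.19, while Sparc had -0.04 ± 0.14. Agrn, a heparan sulphate proteoglycan, had -0.03 ± 0.10 by 1 probe set and -0.26 by another. Per animal, the list medians relative to the wild-type mean ran from -0.12 to -0.01 in knockout and from -0.02 to 0.01 in wild-type brains for endothelium. They ran from -0.21 to -0.03 against -0.04 to 0.06 for mural cells, from -0.14 to -0.01 against -0.03 to 0.07 for meninges, and from -0.21 to -0.02 against -0.07 to 0.05 for basement membrane. In each of these lists the medians of the genotypes overlapped. The summed signals overlapped for endothelium (3830 to 4340 in knockout brains against 4193 to 4306 in wild-type brains) and basement membrane (2876 to 3116.5 against 3054 to 3338). They were just separated for mural cells (1448 to 1634 against 1638 to 1717) and for meninges and fibroblasts (5746 to 6208 against 6264 to 6712), lower in knockout brains in both.

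**Figure D4:**
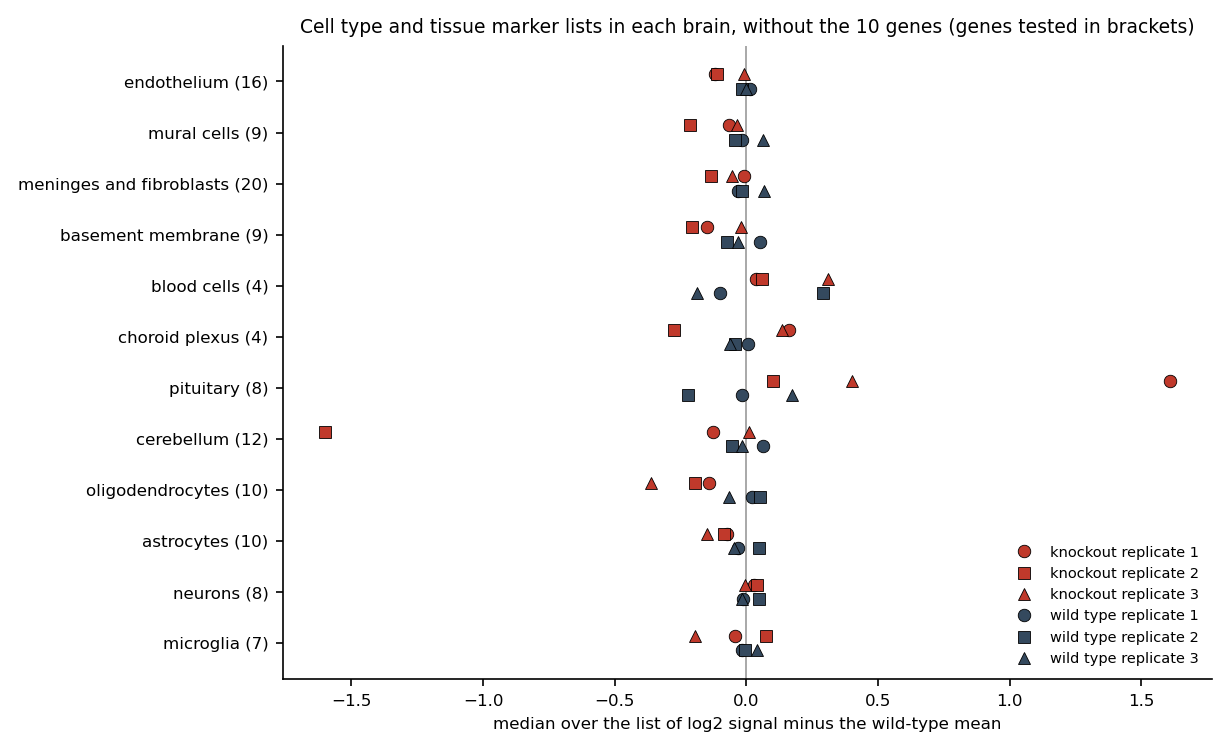
Median over each marker list, without the 10 genes, of log2 signal minus the wild-type mean (horizontal axis) in each knockout (red) and wild-type brain (dark blue). The 4 vascular and meningeal lists lie between -0.21 and 0.07 in all animals, while knockout replicate 1 stands at 1.61 for pituitary and knockout replicate 2 at -1.60 for cerebellum.

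Markers of neighbouring cells that also make some of the 10 genes were set beside them. Of 10 oligodendrocyte genes 8 were lower in knockout brains, 5 of them with an unadjusted limma p under 0.05. Over the array 50.8% of all measured genes were lower, and 3.68% of all tested probe sets were lower at that level. Mobp, a myelin protein, averaged 3776.5 ± 275 in knockout brains against 4381 ± 214 in wild-type brains (SD, n = 3 each, -0.21 ± 0.07). Cryab, a small heat shock protein read by a less specific probe set, averaged 218.1 ± 8.13 and 305.2 ± 25.6 (-0.45 ± 0.10). Qdpr had -0.23 ± 0.06, and Mbp, the brightest of the list, -0.08 ± 0.05, both without overlap. The 2 higher genes were Cldn11 and Mal. The list medians were -0.36 to -0.14 in knockout animals against -0.07 to 0.05 in wild-type animals, and the summed signals 16620 to 17954 against 18709 to 19901. Of 10 astrocyte genes 6 were lower, 3 of them with an unadjusted p under 0.05, and 1 was higher at that level (3.68% and 3.26% of all tested probe sets). S100b, a calcium-binding protein, averaged 735.2 ± 88.8 and 991.8 ± 195 (-0.41 ± 0.14), and the signalling-related Ndrg2 2141 ± 67.2 and 2413 ± 51.4 (-0.17 ± 0.06, but 0.09 by another probe set). The brightest genes, Aldoc and Sparcl1, had -0.15 ± 0.08 and 0.03 ± 0.06, both with overlap. The 4 higher genes were Gfap, Gja1, Sparcl1 and Gjb6. The astrocyte medians were -0.15 to -0.07 in knockout animals against -0.05 to 0.05 in wild-type animals, and the summed signals 19062 to 19993 against 20247 to 20766. Both lists were separated between the genotypes, lower in knockout brains as Igfbp2 was, and their part in the values of Igfbp2 and Ptgds was not tested. Cnp among the oligodendrocyte markers and Fgfr3 among the astrocyte ones were too dim to be tested. Blood cell markers overlapped in summed signal (5146 to 5678 in knockout brains against 4145 to 6822.5 in wild-type brains), as did those of choroid plexus (1692 to 2585 against 2106.5 to 2451). Among 7 microglial genes 3 were higher and 4 lower (median -0.04), and among 8 neuronal genes 4 were higher and 4 lower (median -0.0050), with 0 under an unadjusted limma p of 0.05 in both.

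The relatives and partners of Anxa2 had differences of both signs. Of 8 other annexins and S100 partners 3 were higher and 5 lower (median -0.06), and 0 had an unadjusted p under 0.05 in limma. S100a10, which binds annexin A2, read 477.0, 428.65 and 536.4 in knockout replicates 1, 2 and 3, against 507.8, 560.8 and 569.1 in wild-type replicates 1, 2 and 3. The groups overlapped and its mean was lower in knockout brains (-0.18 ± 0.10, and -0.04 by a second probe set). Anxa7 was higher in all knockout animals (202.0 ± 18.0 and 142.7 ± 51.2, 0.51 ± 0.23), and Anxa5 and Anxa6 had -0.03 ± 0.09 and -0.08 ± 0.08.

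Of 7 genes of the plasminogen system and the vitronectin receptors 5 were higher (median 0.05). Plat, tissue plasminogen activator, read 536.5, 526.6 and 535.0 in knockout replicates 1, 2 and 3, against 435.7, 510.7 and 503.35 in wild-type replicates 1, 2 and 3, with no overlap (0.14 ± 0.09). The integrin chain Itgb5, part of a vitronectin receptor, was lower by 1 probe set (448.2 ± 27.0 and 525.5 ± 40.8, -0.22 ± 0.09) and had 0.31 by another. The partner chain Itgav, by a less specific probe set, had 0.03 ± 0.06, and the protease inhibitor Serpini1 had 0.05 ± 0.08.

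In the insulin-like growth factor axis 4 of 7 other genes were higher and 3 lower (median 0.03). Igf1r, the receptor of insulin-like growth factor 1, read 503.2, 582.9 and 537.8 in knockout replicates 1, 2 and 3, against 428.0, 436.5 and 444.3 in wild-type replicates 1, 2 and 3. All knockout animals lay above all wild-type animals (0.30 ± 0.09), and it was the 1 gene of the list with an unadjusted p under 0.05, higher, where 3.26% of all tested probe sets were. Its ligand Igf1 averaged 933.9 ± 25.1 and 1033 ± 125 (-0.14 ± 0.10) with overlap. Insr, Irs1 and the binding proteins Igfbp1, Igfbp3 and Igfbp7 were below the limit for testing.

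Of the other genes of prostaglandin synthesis and its receptors 2 could be tested. Ptges2, a prostaglandin E synthase, averaged 269.3 ± 19.4 in knockout and 305.1 ± 5.06 in wild-type brains without overlap (-0.17 ± 0.10), and Tbxas1, thromboxane synthase, had 0.04 ± 0.13. The cyclooxygenase Ptgs2 and the receptor Ptgdr were among 10 genes of the list below the limit.

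Among 15 other collagen chains 7 were higher and 8 lower (median -0.0012), and Col6a1, described above, was the 1 with an unadjusted limma p under 0.05 (3.68% of all tested probe sets were lower at that level). Col6a3 had -0.38 ± 0.21 with overlap. Its knockout mean of 63.2 lay below the limit for testing, so this difference is a description of dim values. Of 15 genes of collagen processing 9 were higher (median 0.04), and 1 was lower with an unadjusted limma p under 0.05, as were 3.68% of all tested probe sets. That was Timp1, an inhibitor of matrix metalloproteinases, which read 384.3, 329.8 and 150.3 in knockout replicates 1, 2 and 3, against 387.5, 497.3 and 511.2 in wild-type replicates 1, 2 and 3. Knockout replicate 3 was far the lowest, and knockout replicate 1 lay just below wild-type replicate 1 (-0.75 ± 0.29). Bmp1, which trims procollagens, was lower without overlap (-0.21 ± 0.11), and P4hb, by a less specific probe set, and Timp3 had -0.21 ± 0.14 and 0.04 ± 0.13.

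Of 6 other genes of the VEGF ligands and receptors 3 were higher and 3 lower (median -0.04), and 0 had an unadjusted p under 0.05 in limma. Tie1, an endothelial receptor, was lower in all knockout animals (64.1 ± 13.3 and 84.2 ± 7.05, -0.34 ± 0.19). Its knockout mean lay below the limit for testing, so Tie1 was tested only through its higher wild-type signals. The Tie1 difference is therefore a description of dim values. Vegfb had 0.09 ± 0.08 and the oxygen-sensitive factor Hif1a, by a less specific probe set, -0.13 ± 0.08. Kdr, the main signalling receptor of VEGF, and Pgf, a ligand of Flt1, were below the limit for testing. Of 5 other junction genes 4 were higher (median 0.06) and 0 had an unadjusted p under 0.05, with Cldn11, the claudin of myelin, at 0.10 ± 0.22.

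Of 5 other actins 4 were lower (median -0.15). Actg2, the smooth muscle actin of visceral organs, read 260.0, 239.85 and 227.1 in knockout replicates 1, 2 and 3, against 304.1, 284.4 and 314.8 in wild-type replicates 1, 2 and 3. This less specific probe set was separated between the genotypes (-0.30 ± 0.10), and near-identical actins may share its probes. The cytoplasmic actins Actb and Actg1 had -0.15 ± 0.08 and 0.02 ± 0.05, both with overlap, and another Actb probe set had 0.06.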

How the data were processed

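Each of 6 male mice gave total brain RNA for 1 one-colour Affymetrix array, per the labels. The authors deposited linear signal intensities, 12488 per array, and the submitters' processing notes name GCOS 1.4. The sources used here do not state the signal algorithm, and no detection calls were used. From the values alone each array appears scaled to 1 target (mean of the middle 96% of intensities 300.2 on every array), which would hide a change in total RNA.

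After 66 control entries were set aside, 12422 probe sets remained, of which 10833 had 1 gene symbol in the platform annotation, 396 several and 1193 none. Values were transformed as log2(signal + 16), which understates folds of dim genes, and 7453 probe sets were tested, those whose mean reached the 40th percentile of all means (6.46, which is a signal of 72.2). Differences were fitted with limma 3.58.1 in R 4.3.3 (intensity trend, two-sided, Benjamini-Hochberg adjustment over all tested probe sets, threshold 0.05), knockout minus wild type without covariates and 3 months minus 2 months with genotype. Gene lists used the brightest probe set of each gene and are given as counts and medians. The number of arrays limits the precision (median SE 0.12).

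The members, the lists and the tests were chosen with earlier results of these data known, and the promoter motifs after the promoters had been read. The genes to be named were all members, Ncam1 and, in each list, the 2 others with the lowest unadjusted genotype p and the 2 with the highest mean signal. Of other-tissue lists only the 2 with the highest mean were eligible, and some lists are given by counts alone. Genes named only as below the limit fall outside this rule. On simulated data with 200 changed among 7453 probe sets, the genotype fit recovered 36.4% of changes of 0.5, 83.2% of 1 and 98.5% of 2 on the log2 scale, and the age fit 25.0%, 73.4% and 96.5%. The simulated noise was independent between arrays, and more probe sets were changed than the 2 called by genotype here. These shares hold for that setting and do not give the share of real changes found in these data. The genotype fit was repeated with age as a covariate, in 2-month-old animals alone and with a block for replicate number, and the age fit without genotype. Both were repeated without each array in turn, without the intensity trend, with array weights, with median-centred or quantile-normalised arrays, with a pseudocount of 1 or 64, and with no filter or a stricter one. The interaction of age and genotype, and a genotype fit without knockout replicates 1 and 2, were added after the data were seen. The animals are taken as separate samples, as the labels number them. Promoter sequences are those of RefSeq on GRCm38.p6.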

Additional observations from a re-analysis of the deposited data

How the results depend on the processing

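Across the alternatives no probe set of the 10 genes was called by genotype or by age in limma. Anxa2 kept a positive genotype difference in all 18 alternatives (0.37 to 0.54) and Igfbp2 a negative one in all 18 (-0.40 to -0.29). Flt1 98453_at ranged from 0.54 to 1.06 in 17 alternatives. It was not tested under the stricter filter, as its mean over all arrays lay below the limit of that filter, and nor were Col1a2 101130_at and Acta2. The median over the genes was -0.09, and -0.20 to -0.049 with 1 array left out, -0.16 with array weights and -0.17 without both knockout replicates 1 and 2. That alternative was added after seeing the data and leaves 1 knockout animal, aged 3 months, whose spread is taken from the wild-type group. Over all probe sets, 1 was called higher and 1 lower in knockout brains. The count of higher ones was 0 with quantile normalisation, with median centring, without the filter and without the trend, and 0 to 1 with 1 array left out. The count of lower ones was 2 in 2-month-old animals alone, 2 without knockout replicates 1 and 2, 3 with array weights and 1 to 3 with 1 array left out. Between ages 2 were called higher and 0 lower (454 lower at an unadjusted p under 0.05). The higher count was 1 without a genotype term, 1 without the filter, 0 without the trend and 0 to 3 with 1 array left out, and the lower count 0 to 3 with 1 array left out. The cause was not tested. With the replicate number as a block, 1 probe set was higher and 1 lower, and the median over the genes was -0.09. Deviations of same-numbered animals correlated at 0.01, 0.15 and 0.20 for numbers 1, 2 and 3, and those of differently numbered animals at -0.22 to 0.08. Number 3 is also the 3-month-old animal of both genotypes, so these values cannot decide whether the numbers mark pairs. The main fit did not take the numbers as pairs, and the block is the alternative to it. The means of the 3 Col3a1 probe sets lay below the signal limit, although 98331_at read 72.8 in wild-type replicate 1. That limit is a percentile of the means and not a measure of background. No detection calls were used, so whether the Col3a1 signals stood above background was not tested.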
